A study of Mus musculus with 12 samples.

Results

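Expression of 9 genes that govern the making and repair of muscle fibres was compared in the hind limb muscle of WT mice and mice lacking αB-crystallin and HspB2, maintained on normal chow or a high fat diet. The genes were taken by symbol from the 22923 distinct symbols listed for every library: Pax7, Myf5, Myod1, Myog, Myf6, Mef2a, Mef2c, Runx1 and Ncam1. Each was listed once. RNA from proximal hind limb muscle of male mice aged 22 weeks, on an FVB background (FVB/N in the methods of the study), was sequenced in 12 samples, 3 in each of 4 groups. The WT mice, titled Flox, were littermates of the KO mice, and the KO mice carried a whole-body deletion that removes Cryab and Hspb2 together, so that the loss of either gene alone was not sampled. Nothing in the labels says that the Flox or KO mice carried a Cre transgene. Within each genotype 1 group received normal chow and 1 a high fat diet.

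Muscle fibres are renewed from satellite cells, stem cells under the sheath of the fibre that are marked by the transcription factor Pax7. When they are activated, the basic helix-loop-helix factors Myf5 and MyoD commit their progeny to the muscle lineage, myogenin drives terminal differentiation and fusion, and MRF4, the product of Myf6, is the family member that predominates in adult fibres. MEF2 factors work with them on muscle promoters, while adult fibres that lose their nerve supply, and fibres under repair, are known to express Myog, Runx1 and Ncam1 again.

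The highest levels among the 9 genes belonged to the factors of the mature fibre. Levels are in FPKM, mapped fragments scaled to transcript length and library size, a unit meant to make different genes comparable. Some fibre genes were listed at 0, as given below, so the order of genes is that of the listed values only. Averaged over the 12 libraries, Mef2c stood at 113, Myf6 at 76.5, Myod1 at 25.0, Myog at 12.5, Mef2a at 11.9 and Ncam1 at 4.57. Runx1 followed at 1.29, Myf5 at 0.842 and the satellite cell factor Pax7 at 0.350. The lowest values of Mef2c and Myf6, 83.6 and 60.4 FPKM, lay above the highest of Myod1, 36.5 FPKM, and the highest of Pax7, 0.519 FPKM, overlapped the lowest of Myf5, 0.471 FPKM. Myog, which spanned 4.14 to 24.2 FPKM, overlapped Mef2a, which spanned 3.24 to 17.5 FPKM. The samples were pieces of whole muscle, in which fewer cells of a type and less RNA per cell cannot be told apart.

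The labels and the tissue were checked first. Cryab was listed at 412 to 837 FPKM in the 6 Flox libraries and at 0.845 to 1.75 FPKM in the 6 KO libraries, and Hspb2 at 81.5 to 103 against 0.353 to 1.92 FPKM. These levels follow the titles, from which the groups were taken, whereas the genotype entry of 6 samples names the other genotype. Among 8 fibre markers Acta1 was listed at 0 in 2 libraries (WT chow replicate 1 and KO high fat replicate 2) and Myh4 in all 12, although both genes are used throughout fast muscle. The B and T cell genes Cd3e, Cd79a and Ms4a1 summed to 30.2, 33.4 and 34.6 FPKM in WT chow replicate 2, KO chow replicate 1 and KO chow replicate 3, and to 2.67 FPKM or less in the other libraries. The averaged genotype differences of Myog, Myod1, Runx1, Ncam1 and the called list genes are also given without those 3 libraries, which leaves KO chow with 1 sample that is assumed to vary like the other groups. FPKM totals ran from 499509 to 691621, apart from 1 of 10656382 in KO chow replicate 3 that fell to 484182 without the single microRNA gene Mir324. Read depth was not given in the sources used here.

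The promoter of Myog is shown because the myogenic factors act on each other through E-boxes and MEF2 sites, and that of Runx1 because its transcript varied together with Myog. Each window holds the 250 bases before a RefSeq transcription start (GRCm38.p6), 5′ to 3′ on the strand of the gene. Capitals mark an E-box (CANNTG, the motif bound by the myogenic factors, which reads the same on both strands) or a MEF2 core (TA, 4 bases that are each A or T, then TA, searched on both strands). No marked motif overlaps another.
Myog, chr1:134289754-134290003, plus strand: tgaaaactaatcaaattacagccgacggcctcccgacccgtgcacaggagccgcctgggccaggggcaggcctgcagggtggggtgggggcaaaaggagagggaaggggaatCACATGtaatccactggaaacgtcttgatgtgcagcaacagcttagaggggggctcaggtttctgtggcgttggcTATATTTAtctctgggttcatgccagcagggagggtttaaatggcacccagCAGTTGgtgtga
Runx1, chr16:92826075-92826324, minus strand: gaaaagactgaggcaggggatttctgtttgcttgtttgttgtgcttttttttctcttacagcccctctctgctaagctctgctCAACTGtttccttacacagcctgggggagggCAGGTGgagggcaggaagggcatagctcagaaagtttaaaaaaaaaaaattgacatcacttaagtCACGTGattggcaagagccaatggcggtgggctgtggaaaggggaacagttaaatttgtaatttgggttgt
In the Myog window the E-boxes CACATG and CAGTTG lie 138 to 133 and 12 to 7 bases before the start, and the MEF2 core TATATTTA 63 to 56 bases before it. The Runx1 window, before the more upstream of 2 listed starts, holds 3 E-boxes and no MEF2 core, and the window before the other start, chr16:92697330-92697579, holds neither. An E-box occurs in 66.2% and a MEF2 core in 8.56% of 32851 such windows of all genes, the stricter MEF2 consensus in 2.92%, and TGTGGT, the RUNX motif, on either strand in 14.0%. The stricter consensus was found in none of the 9 windows available for Myog, Pax7, Mef2a, Myf5, Mef2c and Runx1, and the core was searched after that was seen. A match of letters does not show that a factor binds there.

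The satellite cell gene Pax7 and the early factor Myf5 were low and overlapped between all groups. Pax7, in the order of replicates 1 to 3, was listed at 0.469, 0.343 and 0.359 FPKM in chow-fed WT mice, 0.265, 0.445 and 0.260 on high fat diet, 0.200, 0.519 and 0.294 in chow-fed KO mice and 0.296, 0.375 and 0.371 on high fat diet. Both its lowest and its highest value came from chow-fed KO mice. Myf5 was listed at 1.19, 0.888 and 1.05 FPKM in chow-fed WT mice, 0.890, 0.855 and 0.723 on high fat diet, 0.533, 0.953 and 0.854 in chow-fed KO mice and 0.471, 0.895 and 0.808 on high fat diet. In 2 KO libraries, 1 on each diet, Myf5 was below every WT value, and the remaining 4 lay among them. Neither gene reached 1 FPKM in 3 samples, the minimum for the fit across all genes. By an exact permutation test of group labels within diet (two-sided, 400 arrangements, smallest possible p 0.005), KO minus WT on the log2(FPKM + 1) scale was -0.02 for Pax7 (p = 0.78) and -0.14 for Myf5 (p = 0.135). The same exact permutation test within genotype gave differences of high fat diet minus chow of -0.03 for Pax7 (p = 0.63) and -0.10 for Myf5 (p = 0.235).

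Other genes of satellite cells were described by a list of 16, of which 15 were in the files and 11 passed the filter of at least 1 FPKM in at least 3 samples. KO minus WT, averaged over the diets, had a median of -0.02 on the log2(FPKM + 1) scale over these 11, and a median of -0.02 over all 11945 tested genes. None of the 11 passed limma's test at an adjusted p of 0.05, and 4 had an unadjusted p under 0.05, of which 2 were higher and 2 lower in KO mice, where 0.862% of all tested genes passed the adjusted and 26.5% the unadjusted threshold. The largest differences were those of Vcam1, an adhesion molecule of satellite cells and vessels (0.48 ± 0.26, SE, limma adjusted p = 0.258), the Notch target Hey1 (-0.32 ± 0.08, adjusted p = 0.0701) and the proteoglycan Sdc3 (0.27 ± 0.08, adjusted p = 0.0833). M-cadherin, encoded by Cdh15, lay between 5.61 and 8.74 FPKM in all 12 libraries.

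**Figure D1:**
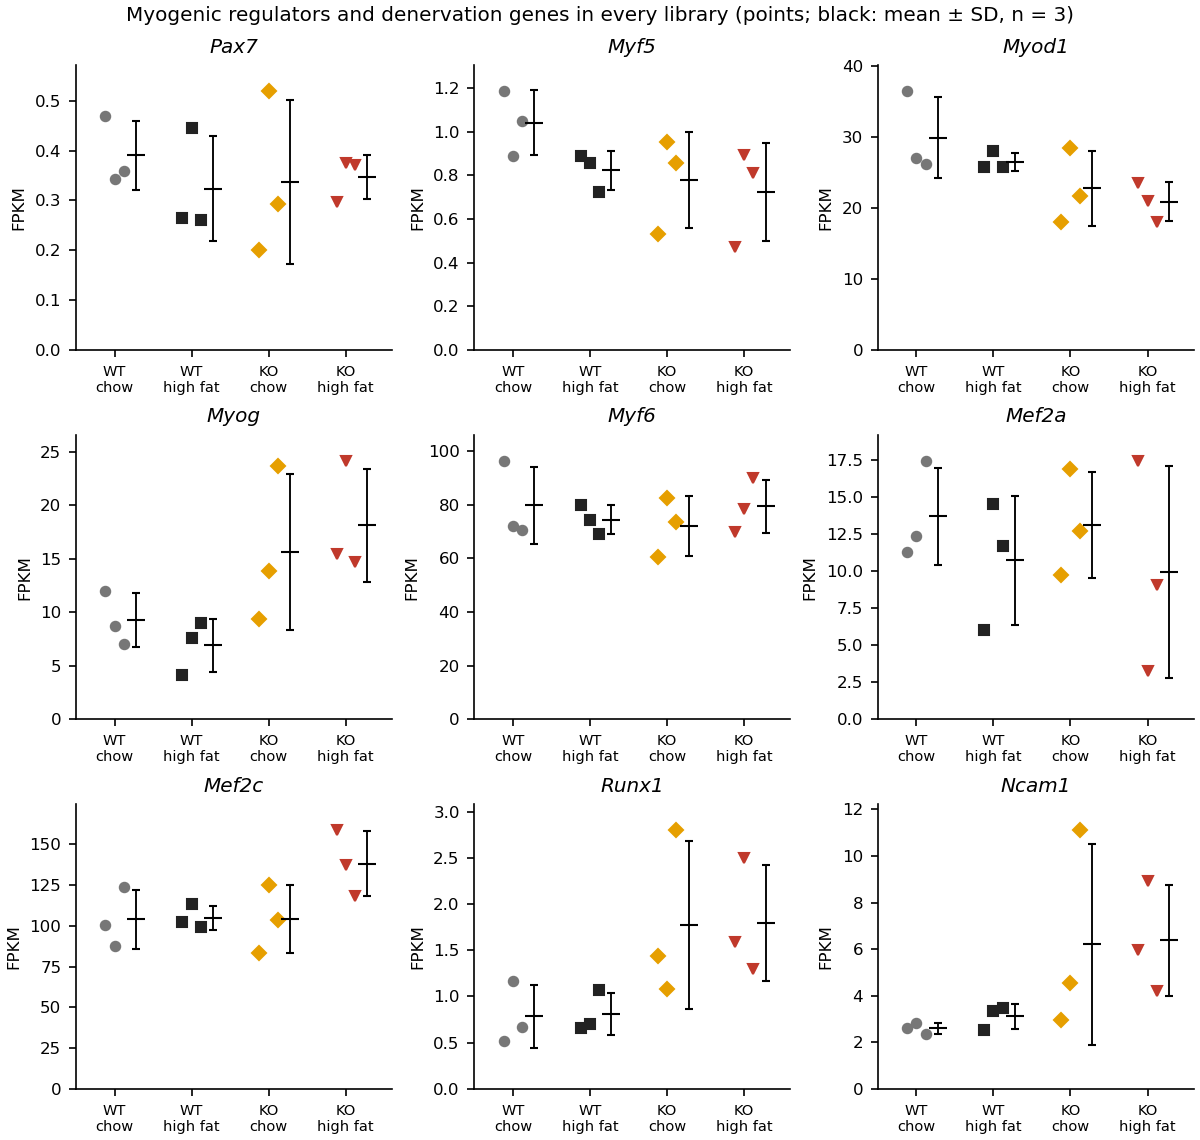
FPKM of each of the 9 genes in every library, by group (points, replicates 1 to 3 from left to right, with the mean ± SD of 3 samples in black; each axis starts at 0). In Myog, Runx1 and Ncam1, 5 of the 6 KO points lie above every WT point, and in Myod1 5 of 6 lie below every WT point, while Pax7, Myf6 and Mef2a overlap.

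Myog and Myod1, which encode myogenin and MyoD, had differences between genotypes of opposite sign, neither of which passed the test. Myog was at 11.98, 8.75 and 7.06 FPKM in chow-fed WT mice, 4.14, 7.63 and 8.97 in high fat-fed WT mice, 9.39, 13.9 and 23.6 in chow-fed KO mice and 15.5, 24.2 and 14.7 in high fat-fed KO mice. On high fat diet every KO value lay above every WT value, whereas on chow KO replicate 1 lay below WT replicate 1. The group means, from the highest, were 18.1 ± 5.25 (SD, n = 3) in high fat-fed KO mice, 15.6 ± 7.29 in chow-fed KO mice, 9.26 ± 2.50 in chow-fed WT mice and 6.91 ± 2.49 FPKM in high fat-fed WT mice. The KO groups were within 1 SD of each other, and the WT groups likewise.

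Over both diets mean Myog in KO mice was 2.09 times that in WT mice (16.9 ± 5.84 against 8.09 ± 2.58 FPKM, SD, n = 6). On the log2(FPKM + 1) scale the difference was 0.96 ± 0.24 (SE; 95% interval 0.44 to 1.49), and limma's adjusted p over all tested genes was 0.0633 (unadjusted 0.00189), short of the threshold of 0.05. It measured 1.29 ± 0.34 on high fat diet (limma adjusted p = 0.105) and 0.63 ± 0.34 on chow (adjusted p = 0.341). The interaction of diet and genotype, 0.66 with a 95% interval from -0.39 to 1.71, did not pass the test (limma adjusted p = 0.898). Without WT high fat replicate 3 the adjusted p of the averaged genotype difference was 0.0458 and without KO chow replicate 2 it was 0.0456. Over all 12 fits that left out 1 library it ran from 0.0456 to 0.140. In that comparison limma called 491 of 11916 genes without WT high fat replicate 3 and 1200 of 11910 without KO chow replicate 2. With all libraries it called 103 of 11945. Without the 3 libraries rich in B and T cell genes the difference was 0.92, with a limma adjusted p of 0.366.

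Myod1 was at 36.5, 27.1 and 26.2 FPKM in chow-fed WT mice, 25.8, 28.04 and 25.8 in high fat-fed WT mice, 18.1, 28.5 and 21.8 in chow-fed KO mice and 23.6, 21.0 and 18.1 in high fat-fed KO mice. Only KO chow replicate 2 reached the WT range, and on high fat diet the genotypes did not overlap. Mean Myod1 in KO mice was 0.774 times that in WT mice, with a difference on the log2(FPKM + 1) scale of -0.36 ± 0.12 (SE; 95% interval -0.62 to -0.10, limma adjusted p = 0.1002, unadjusted 0.0112). Without KO chow replicate 2 the adjusted p was 0.0378, in a fit that called 1200 of 11910 genes by averaged genotype. Without the 3 libraries rich in B and T cell genes the difference was -0.22.

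The ratio of Myog to Myod1 was examined after these values were seen, and is given with no test. It ran from 0.160 to 0.348 in the 6 WT libraries and from 0.487 to 1.15 in the 6 KO libraries. Among the WT libraries the lowest was high fat replicate 1 and the highest high fat replicate 3, and the genotypes did not overlap.

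**Figure D2:**
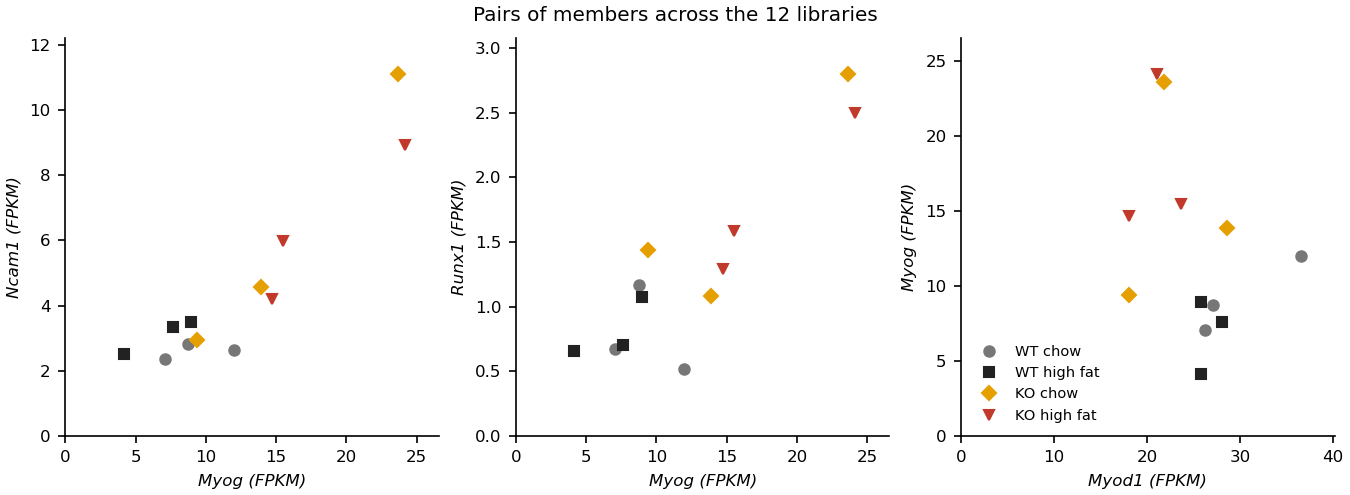
FPKM of 3 pairs of genes in the 12 libraries (1 point per library, symbols by group; axes start at 0). Ncam1 and Runx1 are high in the libraries in which Myog is high, led by KO chow replicate 3 and KO high fat replicate 2, and Myog against Myod1 separates the WT from the KO libraries.

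Myf6, the adult member of the family, overlapped between the genotypes. It ranged from 68.9 to 96.5 FPKM with a median of 73.4 in the WT libraries and from 60.4 to 89.9 with a median of 76.0 in the KO libraries. The difference, KO minus WT on the log2(FPKM + 1) scale, was -0.03 with a 95% interval from -0.26 to 0.21 (limma adjusted p = 0.896).

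Partners and inhibitors of these factors were given by a list of 12 genes, 11 of which passed the filter. None passed limma's test in the genotype comparison averaged over the diets (0.862% of all genes), 2 had an unadjusted p under 0.05 (26.5% of all genes), and the median difference was -0.02, as over all tested genes. Id1, which binds E proteins and keeps them from the myogenic factors, had the largest difference (-0.60 ± 0.18, SE, limma adjusted p = 0.0883), followed by the repressor Twist1 (0.54 ± 0.18, adjusted p = 0.103) and Id2 (0.24 ± 0.30, adjusted p = 0.624). Id1 was at 19.8 to 62.6 FPKM in WT and 16.1 to 27.99 FPKM in KO libraries.

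The MEF2 genes, whose products bind A/T-rich sites beside the E-boxes, varied in a different way. Mef2c was at 100.3, 87.8 and 124 FPKM in chow-fed WT mice, 102, 113 and 99.3 in high fat-fed WT mice, 83.6, 125 and 103 in chow-fed KO mice and 159, 137 and 119 in high fat-fed KO mice. The 3 KO libraries on high fat diet lay above the 3 WT libraries on the same diet, and on chow the genotypes overlapped. The difference between genotypes on the log2(FPKM + 1) scale was 0.39 ± 0.17 (SE) on high fat diet (limma adjusted p = 0.289), and its 95% interval on chow ran from -0.37 to 0.37. High fat diet minus chow in KO mice was 0.41 ± 0.17 (limma adjusted p = 0.432, unadjusted 0.0313), and the interaction was 0.39 with a 95% interval from -0.13 to 0.91 (limma adjusted p = 0.884).

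Mef2a overlapped between all 4 groups. It was at 11.3, 12.4 and 17.4 FPKM in chow-fed WT mice, 6.01, 14.5 and 11.7 in high fat-fed WT mice, 9.75, 16.9 and 12.7 in chow-fed KO mice and 17.5, 3.24 and 9.06 in high fat-fed KO mice. Both extremes came from high fat-fed KO mice. KO minus WT on the log2(FPKM + 1) scale was -0.17 with a 95% interval from -0.89 to 0.55 (limma adjusted p = 0.763), so that differences within that interval in either direction could not be told from 0. Over 302 bases its exons overlap those of Lysmd4 on the other strand, and Ncam1 and Runx1 share 417 and 106 exon bases with the antisense genes Gm11149 and Gm26626. Use of strand in the counting was not given in the sources used here. Of 11 other MEF2 genes and cofactors, all of which passed the filter, none passed limma's test, 3 had an unadjusted p under 0.05, all lower in KO mice, a share close to the 26.5% of all genes, and the median difference was -0.12. The largest were those of Eya1 (-0.32 ± 0.14, SE, limma adjusted p = 0.176) and Vgll2 (-0.31 ± 0.17, adjusted p = 0.271), cofactors or partners in muscle transcription.

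Runx1, a RUNX transcription factor that is known to sustain denervated fibres, was at 0.520, 1.16 and 0.669 FPKM in chow-fed WT mice, 0.659, 0.703 and 1.07 in high fat-fed WT mice, 1.44, 1.081 and 2.80 in chow-fed KO mice and 1.59, 2.50 and 1.29 in high fat-fed KO mice. Only KO chow replicate 2 fell within the WT range, below WT chow replicate 2, and on high fat diet the genotypes did not overlap. Mean Runx1 in KO mice was 2.23 times that in WT mice (1.78 ± 0.698 against 0.798 ± 0.258 FPKM, SD, n = 6). On the log2(FPKM + 1) scale, which understates the difference of a gene this low, it was 0.61 ± 0.17 (SE; 95% interval 0.24 to 0.97, limma adjusted p = 0.0731, unadjusted 0.00382). Without KO chow replicate 2 the adjusted p was 0.0375, in the fit that called 1200 of 11910 genes by averaged genotype. Only 2 of the 6 WT libraries reached 1 FPKM, so that Runx1 met the filter through the KO libraries, and with no filter its limma adjusted p was 0.114.

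White blood cells also express Runx1, and the summed level of 8 leukocyte markers varied with it over the libraries. That sum ran from 23.8 to 75.4 FPKM in chow-fed WT mice, 14.5 to 29.7 in high fat-fed WT mice, 36.0 to 94.9 in chow-fed KO mice and 45.5 to 84.2 in high fat-fed KO mice. Pearson's r between Runx1 and this sum on the log2 scale was 0.85 over the 12 libraries, and 0.78 after removal of the group means, with genotype, tissue and library shared by the points. The same values were 0.70 and 0.33 for Myog and 0.61 and 0.37 for Ncam1. In the genotype comparison averaged over diets all 8 markers had positive differences, as had 5299 of all 11945 tested genes. Cd3e and Ms4a1 each reached 1 FPKM in only 1 WT library and 2 KO libraries, so this count is a description. The macrophage gene Emr1 passed the test (0.89 ± 0.16, SE, limma adjusted p = 0.0418), as 0.862% of all genes did. Cd68 (1.23 ± 0.28, adjusted p = 0.0593) and Csf1r (0.98 ± 0.21, adjusted p = 0.0563) did not. Cd3e, Cd79a and Ms4a1 were each listed at 0 in 1 library. Without the 3 libraries rich in B and T cell genes the Runx1 difference was 0.50 (limma adjusted p = 0.375). The part of white blood cells in the differences of Runx1, Myog and Ncam1 was not tested. Of the RUNX relatives only Cbfb, the shared partner subunit, passed the filter among 4 listed genes, with a difference of -0.09 ± 0.15 (SE, limma adjusted p = 0.718).

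Ncam1, a cell adhesion molecule of nerve, satellite cells and denervated fibres, was at 2.63, 2.82 and 2.35 FPKM in chow-fed WT mice, 2.52, 3.33 and 3.49 in high fat-fed WT mice, 2.94, 4.57 and 11.1 in chow-fed KO mice and 5.98, 8.94 and 4.20 in high fat-fed KO mice. Within each diet every KO value lay above every WT value, but KO chow replicate 1 lay below 2 of the WT values on high fat diet. The 6 WT values spanned 2.35 to 3.49 FPKM and the 6 KO values 2.94 to 11.1. Mean Ncam1 in KO mice was 2.20 times that in WT mice, with a difference on the log2(FPKM + 1) scale of 0.82 ± 0.24 (SE; 95% interval 0.28 to 1.36, limma adjusted p = 0.0843, unadjusted 0.00643). It measured 0.84 ± 0.34 on chow and 0.80 ± 0.34 on high fat diet, and the interaction was -0.04 with a 95% interval from -1.11 to 1.03 (limma adjusted p = 0.995). Without the 3 libraries rich in B and T cell genes the averaged difference was 0.74 (limma adjusted p = 0.359).

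Glia of peripheral nerve express Ncam1 too. The summed level of 7 Schwann cell markers was 105 to 488 FPKM in chow-fed WT mice, 138 to 227 in high fat-fed WT mice, 283 to 454 in chow-fed KO mice and 148 to 234 in high fat-fed KO mice. None of the 7 passed limma's test in the averaged genotype comparison (0.862% of all genes), and none had an unadjusted p under 0.05 (26.5% of all genes). All had positive differences, as had 5299 of all 11945 tested genes, and no marker was listed at 0. On chow 3 of the 7 had an unadjusted p under 0.05 (16.7% of all genes). There 7 differences were positive (5371 of all 11945 genes), with a median of 0.87. On high fat diet none had an unadjusted p under 0.05 (16.2% of all genes). There 1 difference was positive (5631 of all 11945 genes), with a median of -0.12. Cdh19 reached 1 FPKM in 2 WT and 4 KO libraries and so met the filter through the KO libraries, which makes these counts descriptions. Pearson's r between Ncam1 and the Schwann cell sum on the log2 scale was 0.14 over the 12 libraries and -0.15 after removal of the group means. The highest sum was in WT chow replicate 3, which held the lowest Ncam1. The part of nerve glia in the Ncam1 difference was not tested.

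Ncam1 also lies near the deleted genes. It occupies chr9:49502136-49798925 (GRCm38, minus strand) and ends 0.952 Mb from the pair Cryab and Hspb2. Of 56 tested genes within 5 Mb of that pair, 24 (42.9%) had an unadjusted p under 0.05 in the averaged genotype comparison, against 26.5% of all tested genes, and 3 passed limma's adjusted test, Pts, Sdhd and 2310030G06Rik, each lower in KO mice. Alleles that travel with the deletion on chromosome 9 and the deletion itself cannot be told apart in this design.

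**Figure D3:**
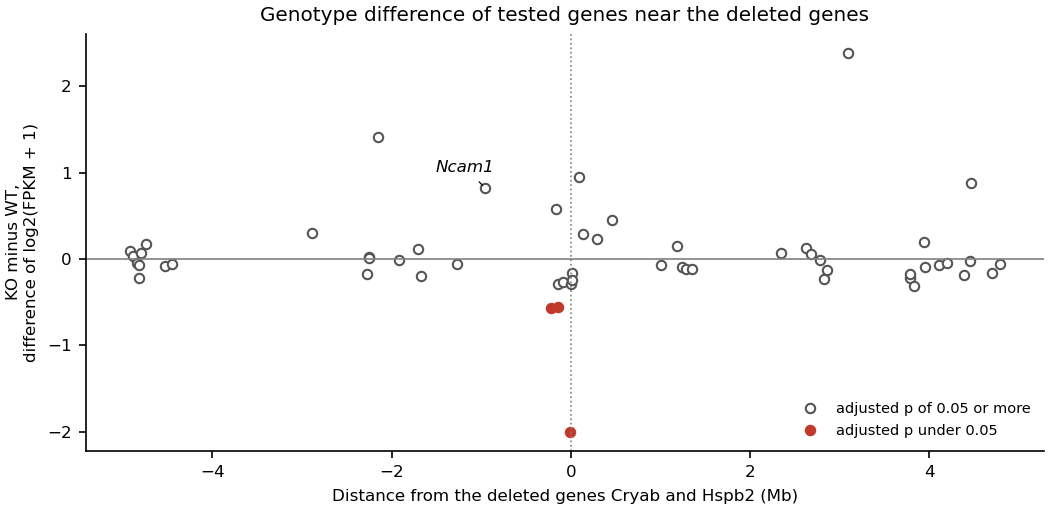
Difference of log2(FPKM + 1) between KO and WT mice, averaged over the diets, for the 56 tested genes within 5 Mb of Cryab and Hspb2 on chromosome 9 (1 point per gene; distance from the pair in Mb, negative towards the start of the chromosome). The 3 filled points are below 0 and close to the pair, and Ncam1, at 0.82, is open.

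Counts over the 7 tested genes were read against all genes. In the genotype comparison averaged over the diets none of the 7 passed limma's adjusted p of 0.05, which 103 of 11945 genes (0.862%) did, 77 higher and 26 lower in KO mice. Myog, Runx1, Ncam1 and Myod1, 4 of the 7, had an unadjusted p under 0.05, against 26.5% of all genes. On high fat diet none passed the adjusted threshold (0.109% of all genes), 4 of 7 had an unadjusted p under 0.05 (16.2%), and the genotypes did not overlap in 5 of the 7, against 23.7% of all genes. On chow none passed (0.0586%), 3 of 7 had an unadjusted p under 0.05 (16.7%), and only Ncam1 did not overlap, against 18.4% of all genes. Runx1, which met the filter through the KO libraries, is counted at an unadjusted p under 0.05 in each of these comparisons. It is also among the 5 on high fat diet, so these counts are descriptions only.

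**Figure D4:**
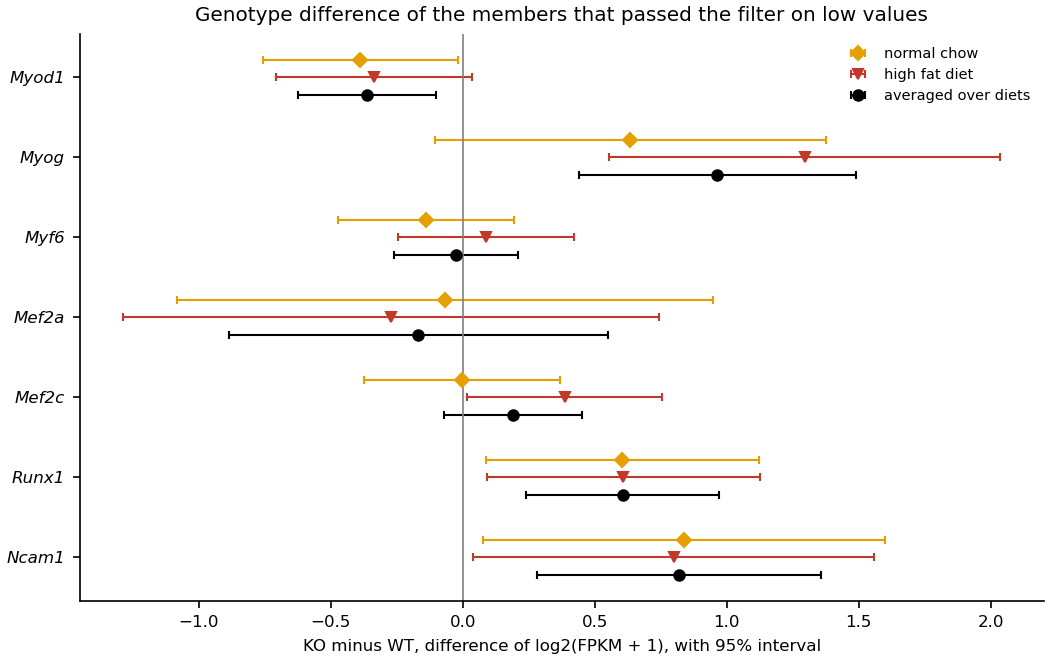
KO minus WT difference of log2(FPKM + 1) with its 95% interval for the 7 genes that passed the filter, on normal chow, on high fat diet and averaged over the diets. The averaged intervals of Myog, Runx1 and Ncam1 lie above 0 and that of Myod1 below 0, none with an adjusted p under 0.05, and those of Myf6, Mef2a and Mef2c include 0.

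None of these genes changed with diet by limma's test. Averaged over genotypes, high fat diet minus chow ran from -0.48 for Mef2a (95% interval -1.20 to 0.24) to 0.22 for Mef2c (-0.04 to 0.48), with limma adjusted p-values of 0.485 and 0.407, and none of the 7 passed an adjusted p of 0.05 (0.0586% of all genes) or an unadjusted one (13.9%). In WT mice none passed an adjusted (0.1%) or unadjusted (8.12%) p of 0.05 by limma, and Myog differed by -0.40 ± 0.34 (SE, limma adjusted p = 0.838). In KO mice limma called 0 of 11945 genes (0.0%), of which 1349 (11.3%) had an unadjusted p under 0.05, Mef2c among them. Limma's interaction test likewise called 0 genes (0.0%), with 746 (6.25%) at an unadjusted p under 0.05 and none of the 7 genes among them.

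Genes that are known to be switched on again in regenerating or denervated fibres were described by lists of 13 and 15. Both lists were chosen with earlier results of these data known, and the study names Ankrd1 among its top genes by genotype. Their counts and medians are therefore descriptions, not tests of the lists. All 13 regeneration genes passed the filter. In the averaged genotype comparison 12 had positive differences (5299 of all 11945 genes), with a median of 0.74 against -0.02 over all tested genes. By limma's test 3 of the 13 rose in KO mice (0.862% of all genes passed) and none fell. They were Ankrd1, a titin-linked stress protein (3.09 ± 0.47, SE, adjusted p = 0.0206), the embryonic and atrial light chain Myl4 (1.83 ± 0.26, adjusted p = 0.0172) and the cell cycle inhibitor Cdkn1a, a target of MyoD in differentiation (1.48 ± 0.24, adjusted p = 0.0245). Myl4 ranged from 5.93 to 12.1 FPKM in WT and from 18.4 to 73.1 FPKM in KO libraries, without overlap. Embryonic myosin, Myh3, was at 0.235 to 1.38 FPKM in WT and 1.74 to 10.1 FPKM in KO libraries and missed the threshold (1.43 ± 0.32, limma adjusted p = 0.0588), having met the filter through the KO libraries, as 1 WT library reached 1 FPKM. Neonatal myosin, Myh8, overlapped between genotypes at 26.9 to 34.4 and 24.2 to 41.6 FPKM.

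Of 15 denervation genes 11 passed the filter, with a median of 0.41 in the averaged genotype comparison. Positive differences were found for 10 of the 11, against 5299 of all 11945 tested genes. An unadjusted p under 0.05 was found for 6 (26.5% of all genes), and 1 passed limma's adjusted test (0.862% of all genes). Gdf5, which met the filter through KO libraries alone, is among the 11, so these counts are descriptions. Chrne, the adult epsilon subunit of the acetylcholine receptor, rose in KO mice (0.79 ± 0.15, SE, limma adjusted p = 0.0455), from 7.93 to 14.1 FPKM in WT libraries to 14.4 to 31.5 FPKM in KO libraries. Its gene is better known from innervated fibres than from denervated ones. The alpha subunit Chrna1, at 5.10 to 6.60 FPKM in WT and 6.86 to 18.9 FPKM in KO libraries, missed the threshold (0.84 ± 0.19, limma adjusted p = 0.0588), and so did Sln, which encodes the calcium pump inhibitor sarcolipin (2.39 ± 0.55, adjusted p = 0.0593). Sln lies 3.09 Mb from Cryab and Hspb2, so that for it too linked alleles and the deletion cannot be told apart. The fetal gamma subunit Chrng, at 0.113 to 0.600 FPKM in WT and 0.313 to 1.91 FPKM in KO libraries, did not pass the filter. Nor did Dach2, which went the other way, with means of 0.816 FPKM in WT and 0.379 FPKM in KO libraries. The genotypes overlapped in Fbxo32, at 36.3 to 61.3 FPKM in WT and 32.4 to 56.4 FPKM in KO libraries. They also overlapped in Trim63, at 86.6 to 124 and 86.9 to 143 FPKM.

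Fusion of myoblasts was covered by 9 genes, 8 of which passed the filter, with a median of 0.06. Of the 8, 1 rose and 1 fell in KO mice by limma's test (0.862% of all genes passed). Gm7325, the symbol in these files for the micropeptide myomixer, was at 0.498 FPKM or less in WT libraries, 1 of which listed it at 0, and at 0.848 to 2.104 FPKM in KO libraries. It met the filter through 3 KO libraries alone, so its difference of 0.95 ± 0.18 (SE, limma adjusted p = 0.0435, and 0.0677 with no filter) is given as a description. Its partner myomaker, here Tmem8c, reached 0.176 to 2.22 FPKM in WT and 1.26 to 7.41 FPKM in KO libraries (1.35 ± 0.35, limma adjusted p = 0.0695), and 1 WT library reached 1 FPKM. The junctional adhesion molecule Jam2, which vessels also express, fell by 0.27 ± 0.05 (SE, limma adjusted p = 0.0455).

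**Figure D5:**
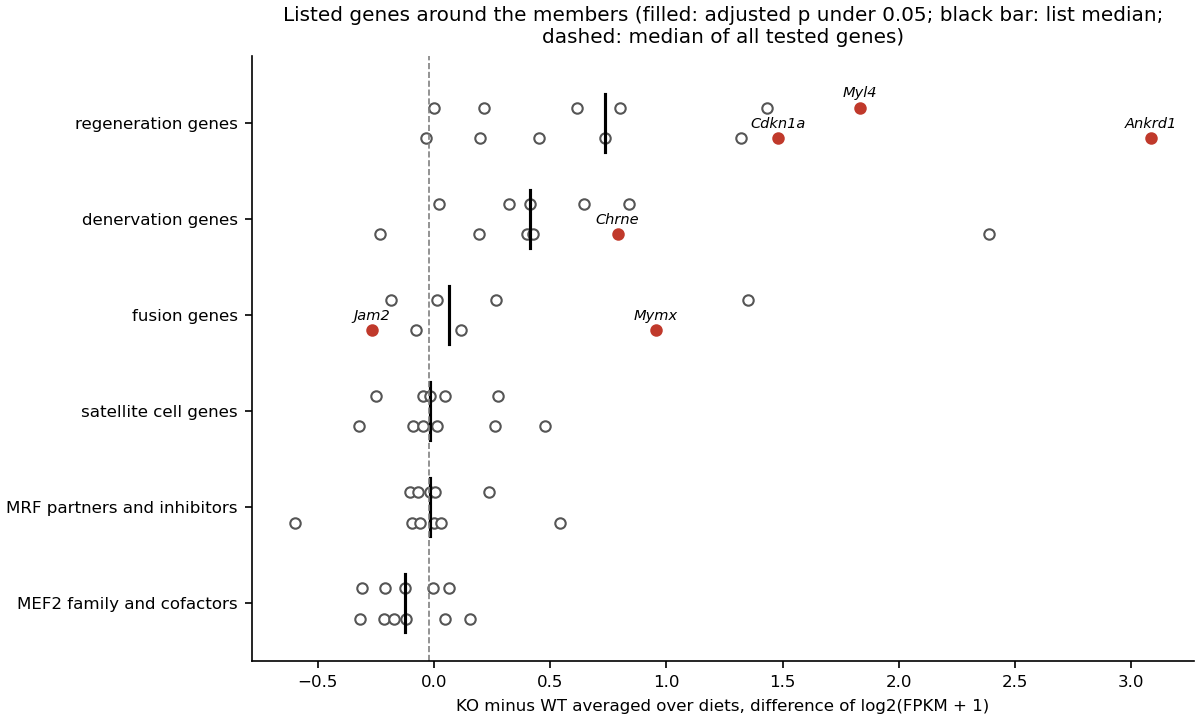
KO minus WT difference of log2(FPKM + 1), averaged over the diets, for the tested genes of 6 lists (1 point per gene, offset up and down for legibility; filled where the adjusted p is under 0.05; black bar, list median; dashed line, median of all tested genes). The bars of the regeneration and denervation genes stand at 0.74 and 0.41 and those of the satellite cell genes and of the partners and inhibitors at -0.02. The lists were chosen with earlier results of these data known, so the bars are descriptions. Mymx is the current symbol of Gm7325.

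These calls depended on single libraries, although no direction changed. Over 12 fits that each left out 1 library, Myl4 passed in 11, Ankrd1 in 9, Cdkn1a in 7, Emr1 in 6, Chrne in 5 and Jam2 in 4, and Gm7325 passed in 5 of the 9 in which it met the filter. Without WT chow replicate 1 none of the 7 passed. Without the 3 libraries rich in B and T cell genes no call held either, with limma adjusted p-values of 0.0765 for Ankrd1, 0.190 for Myl4, 0.223 for Cdkn1a, 0.328 for Chrne, 0.338 for Emr1 and 0.366 for Jam2, and Gm7325 did not meet the filter. Markers of other cell types were counted beside them. In the averaged genotype comparison the 4 adipocyte markers had a median difference of 1.995, the 4 fibroblast markers of 0.31, the 4 endothelial markers of -0.18, the 4 bone marrow neutrophil markers of -0.71 and the fibre markers of -0.14, none of these genes with an adjusted p under 0.05. An unadjusted p under 0.05 there, reached by 26.5% of all genes, was found for 3 adipocyte, 1 fibroblast, 2 endothelial and 1 fibre markers. No neutrophil marker reached it. By diet the genotype medians of the adipocyte markers were 1.40 on chow and 2.63 on high fat diet. On high fat diet 4 of 4 had an unadjusted p under 0.05 (16.2% of all genes). Those of the neutrophil markers were 1.30 and -2.80. Of these, 4 of 4 passed the same threshold on high fat diet and in the interaction (6.25% of all genes). Mpo and Elane, 2 of the 4, each reached 1 FPKM in only 2 WT libraries and 1 KO library, so these counts are descriptions. The single tested genes of the keratinocyte and the proliferation lists differed by -0.24 and -0.09. The part of these cell types in the differences above was not tested.

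Across the 12 libraries Myog, Runx1 and Ncam1 varied together. Pearson's r on the log2(FPKM + 1) scale was 0.91 between Runx1 and Ncam1, 0.88 between Myog and Ncam1 and 0.81 between Myog and Runx1, and after removal of the group means it was 0.81, 0.85 and 0.61. The points share libraries, tissue and genotype, so these values are descriptive. KO chow replicate 3 and KO high fat replicate 2 were the highest libraries for all 3 genes. Myog against the sum of fibre markers had r = -0.63, with Acta1 at 0 in 2 of the libraries behind that sum.

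The genes whose pattern was most like each of the 7, by Pearson's r over the 12 libraries, were listed without a test. A930003A15Rik stood nearest to Myog (r = 0.97), followed by 1500017E21Rik and Obfc1 (both at 0.94 or more), and A930003A15Rik had a mean of 0.887 FPKM over the WT libraries and 5.07 FPKM over the KO libraries. Plekhh2, Ndrg4 and Uchl1 stood nearest to Ncam1 (0.98, 0.97 and 0.97), and Sdcbp, Pdia6 and Ucp2 to Runx1 (0.95, 0.95 and 0.94). Myod1 was nearest to 2310001H17Rik, Rhou and Nme6 (0.94, 0.89 and 0.89) and Myf6 to Ppp1r37, 4930429F24Rik and Zfp259 (0.89, 0.88 and 0.87). Mef2c was nearest to B230120H23Rik, Aggf1 and Cdh13 (0.95, 0.93 and 0.92) and Mef2a to Ddx6, Zbtb38 and Snrnp200 (0.98, 0.97 and 0.97).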

How the data were processed

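RNA from proximal hind limb muscle was made into libraries with an Illumina TruSeq RNA kit. Per the submitters' processing notes the tools were TopHat2 (2.0.8b) and Cuffdiff (2.1.1) on mm10. The deposited values are 1 FPKM per gene and sample, as estimated by the authors with no replicates pooled; counts and depth were not given in the sources used here, so no counting error could be given. Of 23179 entries per file, symbols listed more than once were represented by the entry with the highest mean, leaving 22923.

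Groups and replicate numbers were taken from the titles. Values were tested as log2(FPKM + 1) with limma (3.58.1, R 4.3.3; intensity trend, 4 group means, 8 residual degrees of freedom, two-sided) on the 11945 genes with at least 1 FPKM in at least 3 samples, with Benjamini-Hochberg adjustment over all of them and a threshold of 0.05. The test was checked on simulated data. A fold change on this scale understates that of low genes. Samples of a group are described as independent, but p-values measure only the spread between these 12 samples. Genes under the filter were tested by exact permutation in Python (3.11.15).

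The 9 genes, the gene lists and the tests were chosen with earlier results of these data known. The rule for naming genes was: the 9 genes in every comparison; Cryab and Hspb2; from each list every gene past the threshold and up to 3 with the largest averaged genotype difference, as far as they bear on the 9 genes; and the 3 genes most like each tested gene. Alternatives were another pseudocount (0.1 FPKM), no filter, quantile and median-of-ratios scaling, no trend, a replicate block, the 2 groups alone, each sample left out and, chosen after seeing the data, no lymphocyte-rich libraries. Positions and exon overlaps came from GENCODE M21 (GRCm38) and promoter windows from RefSeq; Myod1, Myf6 and Ncam1 have no window in the table used here. Some genes of the lists are not reported here.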

Additional observations from a re-analysis of the deposited data

How the results depend on the processing

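Of 958 values of the 7 tested genes recomputed under the alternatives, 883 kept their direction and their side of the threshold. The remaining values were 71 that changed direction, all with a main difference under 0.3 in size, and 4 that newly passed. The averaged genotype differences of Myog, Runx1, Ncam1, Myod1 and Mef2c kept their direction under every alternative. Read depth is not known and limits the low genes Pax7, Myf5 and Runx1 in a way that could not be measured. The causes of the changes were not tested. Where libraries were left out the sample was also smaller, and the part of that was not tested either.

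The direction changed under quantile scaling for Mef2c in the diet comparison in WT mice (-0.044) and the genotype comparison on chow (0.13), and for Myf6 in KO mice by diet (-0.015), by averaged genotype (0.046) and by averaged diet (-0.075). It changed with size factors for Mef2c by genotype on chow (0.0052) and for the interaction of Runx1 (-0.00383), which was -0.012 with a pseudocount of 0.1 FPKM. Without the 3 lymphocyte-rich libraries it changed for Mef2c by diet in WT mice (-0.088) and by genotype on chow (0.17), for Mef2a by genotype on chow (0.25), for the interactions of Myod1 (-0.22) and Ncam1 (0.12), and for Myf6 by diet in KO mice (-0.065), by genotype on chow (0.0028), by averaged genotype (0.045) and by averaged diet (-0.11).

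Of the list genes past the threshold in the report Chrne, Emr1 and Jam2 lost their call with the replicate block (limma adjusted p = 0.0725, 0.0581 and 0.0801), and Cdkn1a, Chrne, Emr1, Gm7325 and Jam2 with no filter (0.0531, 0.0798, 0.0711, 0.0677 and 0.0510). Gm7325 also lost it with quantile scaling (0.0541), and a pseudocount of 0.1 FPKM, size factors and no trend ended none of these calls.

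The number of genes called by limma moved by more than 1.5 times as follows. With no filter on low values 6 were called by diet in KO mice, 24 by genotype on high fat diet, 1 by the interaction and 42 by averaged genotype, against 0, 13, 0 and 103. With quantile scaling 9 were called by diet in KO mice, 26 by genotype on high fat diet and 200 by averaged genotype, and with no intensity trend 2 by diet in KO mice. With only the 2 groups compared 3 were called by diet in WT mice, 15 by diet in KO mice, 4 by genotype on chow and 8 by genotype on high fat diet. Without the 3 lymphocyte-rich libraries 1 was called by diet in WT mice, 11 by averaged genotype and 1 by averaged diet.

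With the replicate block 7 genes were called by diet in WT mice, 4 by genotype on chow, 5 by genotype on high fat diet, 40 by averaged genotype and 1 by averaged diet, and none of the 7 genes changed its call. Deviations of same-numbered samples correlated between -0.81 and 0.39, and samples did not each correlate best with their own number, so the numbers were not taken as a pairing.

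With 1 library left out in turn, the count of called genes ran from 1 to 32 by diet in WT mice, 0 to 10 by diet in KO mice, 4 to 14 by genotype on chow, 4 to 82 by genotype on high fat diet, 0 to 1 for the interaction, 10 to 1200 by averaged genotype and 1 to 18 by averaged diet. The lowest and highest counts by averaged genotype came without WT chow replicate 1 and without KO chow replicate 2. Differences whose direction changed ran, by diet in WT mice, from -0.17 to 0.056 for Myf6, -0.088 to 0.16 for Mef2c and -0.076 to 0.18 for Runx1. By diet in KO mice they ran from -0.25 to 0.065 for Myod1, -0.036 to 0.59 for Myog, -0.15 to 0.29 for Runx1 and -0.21 to 0.60 for Ncam1. By genotype on chow they ran from -0.24 to 0.0037 for Myf6, -0.25 to 0.12 for Mef2a and -0.15 to 0.14 for Mef2c, and on high fat diet from -0.0039 to 0.17 for Myf6 and -0.77 to 0.29 for Mef2a. The interactions ran from -0.10 to 0.22 for Myod1, -0.70 to 0.36 for Mef2a, -0.18 to 0.25 for Runx1 and -0.39 to 0.42 for Ncam1. By averaged genotype they ran from -0.077 to 0.046 for Myf6, -0.42 to 0.11 for Mef2a and -0.065 to 0.021 for Pax7. By averaged diet they ran from -0.22 to 0.093 for Myog, -0.034 to 0.10 for Myf6, -0.058 to 0.16 for Runx1, -0.0098 to 0.40 for Ncam1 and -0.066 to 0.020 for Pax7.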
